A study of Mus musculus with 24 samples.

Results

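Livers of mice without BMAL1 in any cell were compared between CT14 and CT2, circadian times early in the subjective night and early in the subjective day, to see what time difference remains when the clock gene is lost throughout the body. The 6 libraries of the comparison were chosen from their genotype and time labels alone. They were 3 global Bmal1 knockout (KO) libraries at CT2 and 3 at CT14, out of 24 libraries in the study. KO mice were Bmal1-/-, and wild-type (WT) mice were Bmal1+/+ from the same crosses of Bmal1+/- parents on the C57BL/6J background. Liver-specific knockout (LKO) mice were Alb-Cre; Bmal1f/f, and their controls (F) carried floxed Bmal1 alleles without Cre. The albumin promoter drives Cre chiefly in hepatocytes, so the other cells of an LKO liver, and the rest of that animal, keep BMAL1. Each genotype had 3 libraries at each time, and RNA was polyadenylated liver RNA. The sources used here do not give age, sex, feeding or lighting. The labels do not state that each replicate was its own animal, and where it was not, a p-value reflects only the spread between those samples, which may be technical.

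BMAL1 pairs with CLOCK or NPAS2 on E-box sequences and drives the genes for the PER and CRY proteins, which then inhibit the pair. It also drives the nuclear receptors REV-ERB alpha and beta (Nr1d1, Nr1d2), which with the ROR receptors control Bmal1 itself, and the PAR bZIP factors DBP, TEF and HLF, which pass the rhythm on to liver enzymes. Apart from this local loop, a liver receives timing from feeding, hormones such as glucocorticoids and insulin, and body temperature, and genes under these inputs can differ between day and night without a clock in the hepatocyte. Those inputs were not measured here.

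The libraries were deep. The authors' estimated counts summed to 89908697 to 124397056 in the KO libraries and to 88995259 to 131544733 in all 24. Some KO libraries stood apart from other KO libraries in ways that the time labels do not give. Replicate 3 at CT14 had a summed level of 5199 CPM (counts scaled to library size) over 31 interferon-stimulated genes, against 474 to 907 in the other KO libraries. Replicate 2 at CT2 and replicate 1 at CT14 had 19.1 and 21.9 CPM over 20 spermatid genes, against 7.18 to 9.62 in the other 4. This sum was 8.32 to 10.4 CPM in WT libraries, 16.4 to 50.2 in F and 21.3 to 36.3 in LKO. Replicate 1 at CT2 had 9.61 CPM of the Y-linked gene Ddx3y, against 31.5 to 39.7 in the others. The Cwc22rt genes, a cluster of near-identical copies, summed to 4.41 and 5.64 CPM in replicates 1 and 2 at CT2 and to no more than 0.386 in the rest. They summed to 2.44 to 6.37 CPM in WT libraries of both times and to no more than 0.237 in F and LKO. The first principal component of the 6 KO libraries held 28.7% of the variance and set off replicate 3 at CT14, and the second held 25.4% and set off replicate 1 at CT2. No component divided CT2 from CT14 libraries. Pearson correlations across genes ran from 0.962 to 0.978 both between KO libraries of one time and between those of different times. The liver label held: 12 hepatocyte markers summed to 61744 to 98074 CPM at CT2 and 64425 to 87556 at CT14. The 12 pancreatic acinar markers summed to 59.6 to 101.7 CPM at CT2 and 51.9 to 76.3 at CT14. The 6 adipocyte markers summed to 7.81 to 11.9 and 4.76 to 8.38 CPM. Of these markers, the adipocyte genes Lep, Plin1 and Retn and the pancreatic genes Prss2, Cpb1 and Pnlip were at 0 in all 6 KO libraries.

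Bmal1 checks the labels. In KO livers its level was 7.47, 7.15 and 7.57 CPM at CT2 and 7.10, 6.66 and 7.53 at CT14. The 2 times overlapped, and the difference of -0.06 ± 0.35 on the log2 scale (fitted value ± standard error, CT14 against CT2) was far inside its error. An exact two-sided permutation test of the 3 against 3 libraries gave p = 0.4, where 0.1 is the smallest this design allows. Wild-type Bmal1 fell from 31.9 ± 1.66 CPM (SD, n = 3) at CT2 to 5.85 ± 2.67 at CT14, a log2 change of -2.45 (edgeR adjusted p = 0.000431). KO livers thus had less Bmal1 RNA than WT at CT2 and a like amount at CT14. The deleted part of the gene is not given in the sources used here, and a count over the whole gene includes any part of the transcript that the deletion leaves.

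Across all genes, no night-day difference passed the test in KO livers. With edgeR's quasi-likelihood test, 0 of 20514 genes (0%) had an adjusted p under 0.05, here termed called, and the smallest adjusted p was 0.624. WT livers had 521 called genes (2.54%), F livers 545 (2.66%) and LKO livers 174 (0.848%). At an unadjusted p under 0.05 KO livers had 753 genes (3.67%), 430 of them higher at CT14 (2.1%) and 323 lower (1.57%), where WT had 12.4%, F 15.3% and LKO 12% of genes. DESeq2 called 37 KO genes, 26 higher and 11 lower, and edgeR called 8 without replicate 3 at CT2, 2 without replicate 2 at CT2 and 1 without replicate 1 at CT14. The 8 were Fam171b, Apba2 and Cwc22rt genes. Of the DESeq2 calls, 16 were at 0 in all libraries of one time, and 5 were Cwc22rt genes. In bulk RNA, fewer cells of a type and less RNA per cell cannot be told apart in any of these values.

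The sizes of the differences were smaller as well, without a threshold on p. Among the 12745 genes with a mean of at least 1 CPM, the median absolute log2 difference between times was 0.14 in KO, 0.21 in WT, 0.27 in F and 0.24 in LKO. A difference of 2-fold or more was seen in 301 of these genes in KO, 723 in WT, 699 in F and 570 in LKO. The replicates of both times did not overlap for 1566 genes in KO (7.63%), 839 of them higher at CT14 (4.09%) and 727 lower (3.54%), against 4314 in WT (21%), 3934 in F (19.2%) and 4255 in LKO (20.7%). The spread within KO groups was in the range of the other groups. The median standard deviation over genes was 0.22 at KO CT2 and 0.17 at KO CT14 in log2 CPM, and it ran from 0.12 to 0.31 in the other 6 groups. The fitted error was also alike, with a median standard error of 0.24 in each line.

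The clock genes show what the loss looks like gene by gene. Over 30 genes of 4 lists (activators, repressors, REV-ERB, ROR and NFIL3 factors, and PAR bZIP factors with other E-box output), 0 were called between times in KO and 0 had an unadjusted p under 0.05. WT had 19 called members (beside 2.54% of all genes), F 21 (beside 2.66%) and LKO 4 (beside 0.848%). The median absolute log2 difference over the 30 was 0.24 in KO, 1.99 in WT, 1.75 in F and 0.46 in LKO. Promoters of 3 genes are printed here because these genes span the range from nearly silent to well expressed in KO livers and all hold the canonical E-box CACGTG, the sequence bound by BMAL1 with its partner. Each is the 250 bases before the RefSeq gene start (build GRCm38.p6), 5′ to 3′ on the gene's strand, with the E-boxes in capitals.
Ciart, chr3:95882229-95882478, minus strand: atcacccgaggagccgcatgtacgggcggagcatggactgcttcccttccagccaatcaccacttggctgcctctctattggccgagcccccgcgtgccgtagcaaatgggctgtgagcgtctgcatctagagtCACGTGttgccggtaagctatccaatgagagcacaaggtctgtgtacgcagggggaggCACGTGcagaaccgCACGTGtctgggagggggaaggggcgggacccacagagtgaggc
Tef, chr15:81802423-81802672, plus strand: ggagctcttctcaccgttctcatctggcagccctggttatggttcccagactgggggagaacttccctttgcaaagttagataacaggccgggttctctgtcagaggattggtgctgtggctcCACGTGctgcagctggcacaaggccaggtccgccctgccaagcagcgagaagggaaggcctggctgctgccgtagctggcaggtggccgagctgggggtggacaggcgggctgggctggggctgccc
Per1, chr11:69098699-69098948, plus strand: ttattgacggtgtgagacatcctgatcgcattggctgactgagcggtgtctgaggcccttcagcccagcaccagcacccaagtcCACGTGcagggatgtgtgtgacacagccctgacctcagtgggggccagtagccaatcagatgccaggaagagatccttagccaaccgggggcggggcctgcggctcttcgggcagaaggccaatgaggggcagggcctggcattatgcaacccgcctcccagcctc
The Ciart window holds 3 E-boxes, which begin 116, 58 and 44 bases before the start, the Tef window 1 at 127 bases and the Per1 window 1 at 166 bases. Per1 has 2 windows, of which 1, the one printed, holds an E-box. CACGTG, which reads the same on both strands, was in 6.02% of all 32851 promoter windows of this length. Counted by gene, it was in 1172 of 12845 genes tested with a window (9.12%) and in 4 of the 6 clock repressor genes with a window. A match is a description of the letters and not of binding.

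Among the activators, Npas2, a partner of BMAL1, was 22.7, 19.6 and 24.3 CPM at KO CT2 and 27.3, 24.7 and 23.6 at KO CT14. All 6 libraries lay close together, and the log2 difference was 0.18 with a 95% interval of -0.39 to 0.76. WT Npas2 fell from 8.94 ± 2.47 to 0.0571 ± 0.0187 CPM (SD, n = 3), so all KO libraries were above both WT means. The KO time effect was 7.44 above the WT effect on the log2 scale (edgeR adjusted p of the difference 1.58e-08). LKO was not called for Npas2 either (-0.15). Clock, the other partner, was 26.0, 37.1 and 48.3 CPM at CT2 and 42.7, 52.8 and 31.6 at CT14 in KO, with overlapping times and a log2 difference of 0.19 ± 0.49. It was not called in WT, F or LKO either.

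The 8 clock repressors had KO differences from -1.48 to 0.89, with 0 at an unadjusted p under 0.05. Per1 had the largest value above 0, at 6.90, 12.2 and 6.14 CPM at KO CT2 and 18.8, 9.53 and 18.5 at KO CT14. Replicates 1 and 3 at CT14 were high and replicate 2 was not, so the times overlapped, and the difference of 0.89 ± 0.61 was not called. WT Per1 rose by 4.09 (adjusted p = 0.00175). The difference of the Per1 time effect between KO and WT, -3.20, missed the threshold (adjusted p = 0.12). Per2 was 22.9, 26.0 and 30.2 CPM at KO CT2 and 14.8, 35.2 and 15.6 at KO CT14, with replicates 1 and 3 at CT14 now low and replicate 2 high. Its difference was -0.27 ± 0.34, against a rise from 4.49 ± 0.919 to 60.1 ± 9.76 CPM in WT and a rise of 1.80 in LKO (adjusted p = 0.0299). The KO effect was below the WT effect by -4.01 for Per2 (adjusted p = 0.000168) and by -4.65 for Per3 (adjusted p = 1.53e-05). Ciart, a further inhibitor of the BMAL1 pair, was 0, 0.285 and 0.238 CPM at KO CT2 and 0.174, 0.234 and 0.0628 at KO CT14, and so close to absent at both times, where WT reached 11.5 ± 5.13 CPM at CT14. Cry1 and Cry2 were neither low nor different between times: Cry1 was 60.7, 54.2 and 49.1 against 68.2, 58.1 and 54.3 CPM, and Cry2 was 38.3, 49.1 and 45.4 against 50.7, 45.7 and 49.5 CPM. WT means were 23.1 and 26.3 CPM for Cry1 and 18.0 and 40.1 CPM for Cry2, so that no KO library was below a WT mean for Cry1.

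In the nuclear receptor arm, no member was called between times in KO either. Nr1d2 (REV-ERB beta) was 2.27, 2.82 and 2.41 CPM at KO CT2 and 4.84, 2.11 and 3.93 at KO CT14. The times overlapped through replicate 2 at CT14, and every KO library was below both WT means, 8.87 ± 0.438 and 49.7 ± 5.01 CPM. Nfil3, a repressor at the sites of the PAR bZIP factors, was the one clock member besides Rgs16 whose KO times did not overlap. It was 24.6, 22.4 and 21.4 CPM at CT2 and 28.4, 27.8 and 29.9 at CT14, a difference of 0.33 ± 0.18 that was not called. Nfil3 fell at CT14 in WT (-0.70), F (-1.27) and LKO (-0.77), each called, and the difference of the KO from the WT effect was 1.03 (adjusted p = 0.0617). Rgs16, a G protein regulator, was low in KO, with 0.617, 0.302 and 0.363 CPM at CT2 and 3.22, 0.740 and 1.04 at CT14 (1.96 ± 1.14).

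Among the output genes, Dbp, Tef, Hlf and Usp2 lay between the WT means at both times in KO livers. Dbp and Usp2 were nearer the WT CT2 mean. Coq10b, at 6.80 to 9.72 CPM in KO, lay around its WT CT2 mean of 7.14 CPM. Tef was 72.9, 81.0 and 83.0 CPM at KO CT2 and 81.9, 63.0 and 58.3 at KO CT14, overlapping, with a difference of -0.22 and an interval of -0.59 to 0.14. WT Tef rose from 21.8 ± 2.19 to 160.7 ± 9.49 CPM, and all 6 KO libraries lay between those means. Dbp was 2.68, 3.81 and 1.62 CPM at KO CT2 and 3.65, 1.21 and 1.89 at KO CT14, where WT rose from 0.506 ± 0.296 to 29.4 ± 8.25 CPM. The KO effect was below the WT effect by -3.11 for Tef (adjusted p = 6.63e-07) and by -6.12 for Dbp (adjusted p = 0.00024). The LKO values, 0.34 for Tef and 1.06 for Dbp, were not called. Usp2, a deubiquitinase gene with E-box control, was 5.81, 9.83 and 5.87 CPM at KO CT2 and 6.13, 7.20 and 4.52 at KO CT14. Its WT level rose from 1.55 ± 0.563 to 58.8 ± 7.08 CPM, and it also rose by 2.48 in LKO (adjusted p = 0.00311). Of the 19 clock genes called in WT, all 6 KO libraries lay between both WT means for 10 (Bmal1, Per1, Per2, Per3, Bhlhe40, Dbp, Tef, Hlf, Usp2 and Wee1). They lay above both means for Npas2, below both for Nr1d2, and on both sides of a mean for 6 others. The 13 clock kinases and ubiquitin ligases were not called between times in any of the 4 lines, and their KO median was 0.00.

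**Figure D1:**
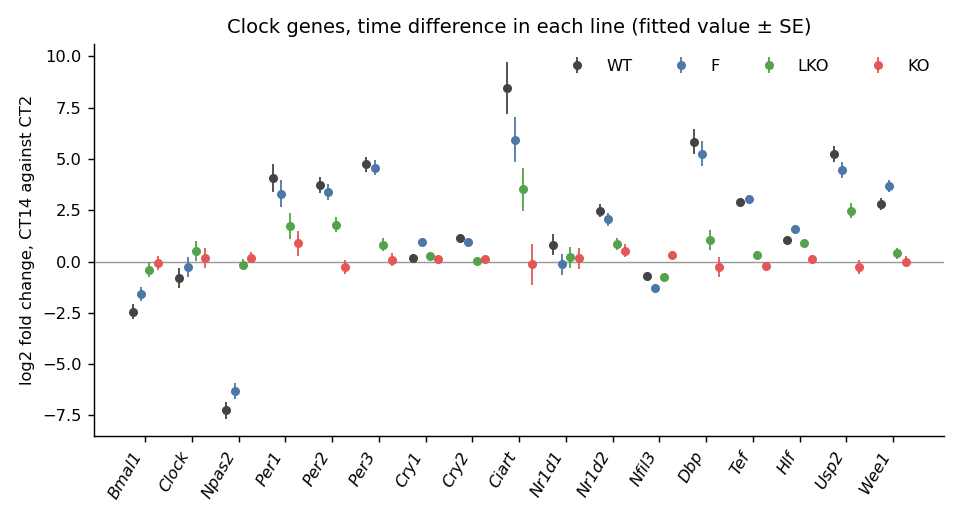
Fitted log2 fold change, CT14 against CT2 (vertical axis), for 17 clock genes in WT, F, LKO and KO livers, with bars of 1 standard error and 3 libraries per time. The KO points lie near 0 for all 17 genes, from -0.27 for Per2, Dbp and Usp2 to 0.89 for Per1, while WT points reach -7.26 for Npas2 and 8.47 for Ciart. Not all clock list members are drawn: KO values of the 8 clock repressors ran from -1.48 to 0.89.

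To follow the whole night-day program and not only the clock, genes were selected in F livers, which share no library with KO, WT or LKO, and then read in the other lines. The 273 genes called higher at CT14 in F (1.33% of genes tested) had a median log2 difference of 0.80 in WT, 0.45 in LKO and 0.01 in KO. The 272 called lower in F (1.33%) had medians of -0.71 in WT, -0.44 in LKO and 0.04 in KO. The direction in F recurred in WT for 258 of the 273 and 257 of the 272 genes, in LKO for 242 and 239, and in KO for 140 (51.3%) and 114 (41.9%). The KO difference was under 0.5 in size for 245 of the 273 and 247 of the 272. An unadjusted p under 0.05 in KO was reached by 9 of the 273 in the F direction and 6 against it, and by 3 of the 272 in the F direction and 12 against it. Over all genes tested, 2.1% were higher and 1.57% lower at CT14 in KO at that threshold. Genes selected in WT gave KO medians of 0.02 and 0.06, and genes selected in LKO gave -0.07 (91 called higher, 0.444%) and 0.05 (83 called lower, 0.405%). Across the genes selected in F, as a description, Pearson's r with the F effect was 0.80 in WT, 0.68 in LKO and -0.10 in KO. These points share the libraries of each line and genes are not independent replicates. In F, replicate 3 at CT2 stood apart, with 2931 CPM over 12 pancreatic acinar genes and 3.86 CPM of Ddx3y, and replicate 3 at CT14 had 902 CPM over the pancreatic genes, where the other 4 F libraries had 25.1 to 75.8. Without both, F had 208 called genes, and those called higher and lower there had KO medians of 0.00052 and 0.094.

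**Figure D2:**
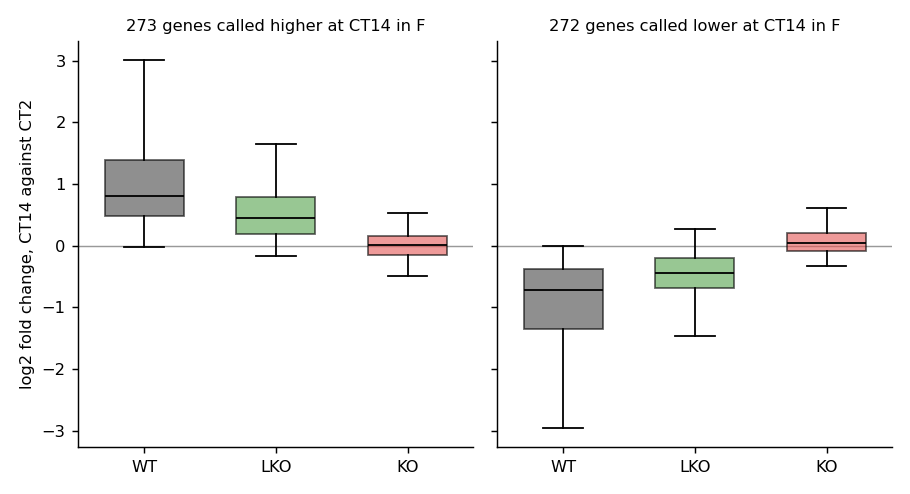
Log2 fold change, CT14 against CT2 (vertical axis), in WT, LKO and KO livers for the 273 genes called higher (left) and the 272 called lower (right) at CT14 in F. Boxes span the quartiles with the median as a line, and whiskers run from the 5th to the 95th percentile: the medians are 0.80, 0.45 and 0.01 on the left and -0.71, -0.44 and 0.04 on the right.

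The same genes place each library on a day-night scale. A time score was taken as the median over the genes called higher in F minus the median over those called lower, each gene as log2(CPM + 1) centred on its mean over the 24 libraries. KO libraries scored -0.353, -0.246 and -0.172 at CT2 and -0.292, -0.224 and -0.327 at CT14. The times overlapped, and the means were -0.257 ± 0.091 and -0.281 ± 0.053 (SD, n = 3), a difference of -0.02. WT moved from -0.289 ± 0.144 to 1.05 ± 0.084, and LKO from -0.658 ± 0.212 to 0.125 ± 0.049. On this scale both KO times lay near the WT CT2 libraries and between the CT2 and CT14 libraries of LKO. F libraries are not read here, since their difference chose the genes.

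**Figure D3:**
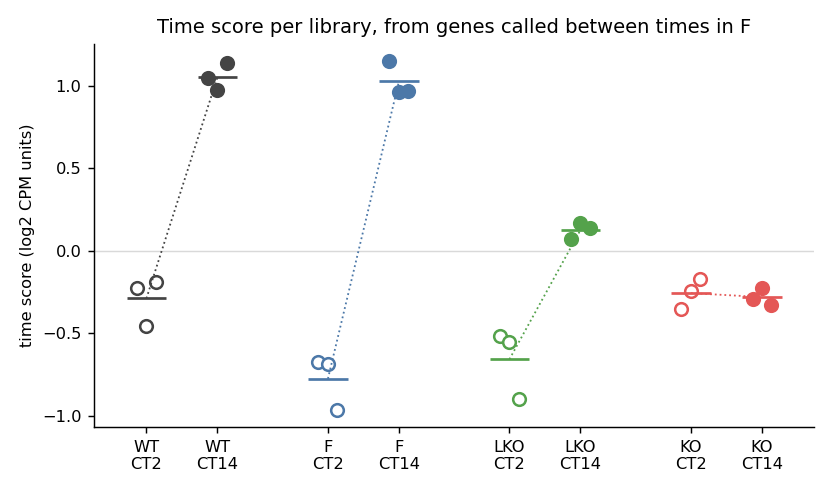
Time score in log2 CPM units (vertical axis) of each library, open points for CT2 and filled points for CT14, with group means as lines, in WT, F, LKO and KO livers, 3 libraries per group. The KO points of both times fall between -0.353 and -0.172, whereas WT means are -0.289 and 1.05 (F points chose the genes and are shown for scale).

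Genes that differed between times in all of the other lines were also looked up in KO. There were 484 genes with an unadjusted p under 0.05 and the same sign in WT, F and LKO, 210 higher and 274 lower at CT14. Their median absolute difference was 0.79 in WT, 0.85 in F, 0.74 in LKO and 0.15 in KO. In KO, 206 of the 484 had that same sign, and 20 (4.13%, beside 3.67% of all genes) had an unadjusted p under 0.05, 6 with that sign and 14 against it. The 6 were Acot4, Tmem218, Il6ra, St3gal5, P2ry1 and Gm6768. The genes described next were chosen from these after their values were seen. St3gal5, the sialyltransferase that makes the ganglioside GM3, was 40.7, 54.4 and 47.8 CPM at KO CT2 and 64.5, 62.8 and 70.0 at KO CT14. The times did not overlap, but the difference of 0.46 ± 0.17 was small beside 2.29 in WT, 2.50 in F and 1.76 in LKO, and it was below the WT effect by -1.83 (edgeR adjusted p = 4e-04). Acot4, a peroxisomal acyl-CoA thioesterase, was 19.5, 23.2 and 22.7 CPM at KO CT2 and 40.8, 26.4 and 36.3 at KO CT14, again without overlap (0.66 ± 0.22). P2ry1, a purine nucleotide receptor, was 4.17, 3.25 and 6.16 CPM at KO CT2 and 7.58, 6.71 and 6.87 at KO CT14 (0.64), against 1.02 in WT and 0.58 in LKO. Neither Acot4 nor P2ry1 was called in KO.

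Genes of fasting and low insulin included Irs2, the named gene of smallest p among those with higher CT14 values in KO livers. The list of 25 fasting genes (targets of CREB and FOXO factors, which act when glucagon is high and insulin low) had a median log2 difference of 0.33 in KO, where the median over all genes tested was 0, and 0.21 in WT, 0.18 in F and -0.31 in LKO. None was called in KO, 18 of 25 had values above 0, and 7 had an unadjusted p under 0.05, all higher at CT14, beside 2.1% of all genes. Promoters of 3 of them are shown, chosen because they hold a motif and had some of the largest KO values of the list. Each is the 250 bases before the RefSeq start on the gene's strand (GRCm38.p6). A FOXO motif (CAAAACAA, either strand) or a CREB motif (TTACGTCA, either strand) is in capitals.
Irs2, chr8:11008930-11009179, minus strand: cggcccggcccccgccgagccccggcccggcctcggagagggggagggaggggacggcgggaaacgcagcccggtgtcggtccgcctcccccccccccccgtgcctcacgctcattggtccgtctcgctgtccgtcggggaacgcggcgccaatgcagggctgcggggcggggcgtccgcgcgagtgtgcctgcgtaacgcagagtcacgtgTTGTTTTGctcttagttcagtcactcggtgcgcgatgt
Igfbp1, chr11:7197537-7197786, plus strand: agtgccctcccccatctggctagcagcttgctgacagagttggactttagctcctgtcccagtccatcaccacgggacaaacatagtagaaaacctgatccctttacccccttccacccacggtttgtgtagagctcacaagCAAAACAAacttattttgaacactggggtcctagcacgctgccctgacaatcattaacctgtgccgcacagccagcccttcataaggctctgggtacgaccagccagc
Pck1, chr2:173152823-173153072, plus strand: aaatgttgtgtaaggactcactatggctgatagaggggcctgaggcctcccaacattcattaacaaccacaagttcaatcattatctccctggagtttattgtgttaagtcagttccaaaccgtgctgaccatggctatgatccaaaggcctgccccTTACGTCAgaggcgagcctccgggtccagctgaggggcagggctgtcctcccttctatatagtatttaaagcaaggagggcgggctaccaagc
The Irs2 motif reads TTGTTTTG, the reverse strand of CAAAACAA, and begins 38 bases before the start. Directly before it in the Irs2 window is an E-box, CACGTG, left in lower case. E-boxes were in 5 of the 20 list genes with a window (25%), beside 9.12% of genes tested with a window. The Igfbp1 motif begins at 108 bases and the Pck1 motif at 93 bases. CAAAACAA was in 2.21% of all promoter windows and TTACGTCA in 0.447%. Of the 20 list genes with a window, only 2 held CAAAACAA and 1 held TTACGTCA. Over the 12845 genes tested with a window, the shares were 2.09% and 0.747%.

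Irs2, which encodes an insulin receptor substrate, was 10.6, 19.1 and 19.5 CPM at KO CT2 and 79.4, 25.05 and 56.2 at KO CT14. All CT14 libraries were above all CT2 libraries, with replicate 2 at CT14 the lowest of them. The difference was 1.71 ± 0.37 (edgeR adjusted p = 0.624) and so was not called. In the other lines Irs2 had the opposite sign, -1.14 in WT, -2.09 in F (called, adjusted p = 0.00368) and -1.52 in LKO. The difference of the time effect passed the test against both WT (2.85, adjusted p = 0.0074) and LKO (3.23, adjusted p = 0.032). At CT2, WT Irs2 was 24.3 ± 12.3 CPM and LKO Irs2 54.6 CPM.

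Igfbp1, a secreted IGF binding protein that insulin represses, was 11.5, 13.6 and 10.02 CPM at KO CT2 and 213, 24.4 and 148 at KO CT14. The times did not overlap, and replicate 2 at CT14 was again far below the other CT14 libraries. The difference of 3.45 ± 1.09 was not called, nor were values of -2.26 in WT, -2.17 in F and -3.94 in LKO, and the difference from WT of 5.72 missed the threshold (adjusted p = 0.107). Pck1, the first committed enzyme of gluconeogenesis, was 444, 347 and 557 CPM at KO CT2 and 1821, 676 and 2803 at KO CT14. It did not overlap either (1.97 ± 0.64), and WT had 1.90 with neither called. G6pc1, the last enzyme of glucose release, did overlap, at 67.1, 45.4 and 136 CPM at CT2 and 217, 55.8 and 250 at CT14 (1.07 ± 0.50). Gadd45g, a stress gene, was 6.27, 12.6 and 14.99 CPM at CT2 and 98.4, 9.003 and 76.3 at CT14 (2.44 ± 0.77). For these genes replicates 1 and 3 at CT14 were the high libraries and replicate 2 sat in or near the CT2 range. Foxo3, itself on the list, was flat in KO (-0.01) and rose in WT (1.43), a difference of -1.43 (adjusted p = 0.000381), and its LKO value was 0.06, not called. Leaving out each KO library in turn, the list median stayed between 0.21 and 0.41, with 5 to 7 members at an unadjusted p under 0.05. It held 2 such members with replicate 1 at CT2 and replicate 3 at CT14 both left out.

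Enzymes of glucose use showed less. Of 32 glycogen and glucose genes, 0 were called in KO and the median was -0.04. Pklr, the liver pyruvate kinase, was 134, 131 and 160 CPM at KO CT2 and 93.1, 121 and 89.4 at KO CT14, without overlap (-0.49 ± 0.21), where it rose by 1.82 in WT (adjusted p = 3.28e-05). Gys2, the liver glycogen synthase, was 54.5, 61.6 and 51.9 CPM at KO CT2 and 61.4, 55.0 and 41.0 at KO CT14, while WT rose from 77.9 ± 5.58 to 293.9 ± 35.9 CPM. The KO effect on Gys2 was below the WT effect by -2.01 (adjusted p = 0.000145). LKO livers showed no Gys2 call either (0.01). Lipid synthesis had the same shape. The 30 tested lipogenesis genes had a KO median of -0.02, against 0.50 in WT, 0.63 in F and -0.08 in LKO. Thrsp, a lipogenic regulator, was 284, 98.6 and 183 CPM at KO CT2 and 98.4, 210.0 and 86.4 at KO CT14, overlapping, where WT rose from 80.9 ± 35.1 to 2011 ± 242 CPM. Lpin1, a phosphatidate phosphatase, was 28.1, 57.8 and 43.8 CPM at KO CT2 and 37.0, 40.0 and 50.8 at KO CT14, where WT rose from 25.9 ± 9.92 to 409.6 ± 214 CPM. The KO effects were below the WT effects by -5.15 for Thrsp (adjusted p = 0.000141) and -4.00 for Lpin1 (adjusted p = 0.00247). The LKO values, 0.88 for Thrsp and 0.98 for Lpin1, were not called. Median KO differences were -0.01 for 37 fatty acid oxidation genes, 0.17 for 27 cholesterol synthesis genes and -0.07 for 39 genes of amino acid breakdown and the urea cycle, with 0 called in each.

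Heat shock genes are known to respond to body temperature, and some of them rose at CT14 in each of the other lines. Of 28 heat shock chaperones, 8 were called higher in WT (1.1% of all genes), 6 in F (1.33%) and 1 in LKO (0.444%), with medians of 0.90, 0.58 and 0.43. In KO the median was -0.08, 10 of 28 values were above 0, and 0 members had an unadjusted p under 0.05 or times that did not overlap. The sign of this median rested on single libraries: it was 0.011 without replicate 1 at CT2 and 0.024 without replicate 1 at CT14, each with 16 values above 0, and -0.18 with 3 above 0 without replicate 2 at CT14. The promoter of Hspa1b, an inducible HSP70 gene, is shown because the gene lay among the largest risers in WT and F. Its window before the RefSeq start (GRCm38.p6) holds GAANNTTC, the core of the heat shock element, written in capitals as GAAGATTC.
Hspa1b, chr17:34959239-34959488, minus strand: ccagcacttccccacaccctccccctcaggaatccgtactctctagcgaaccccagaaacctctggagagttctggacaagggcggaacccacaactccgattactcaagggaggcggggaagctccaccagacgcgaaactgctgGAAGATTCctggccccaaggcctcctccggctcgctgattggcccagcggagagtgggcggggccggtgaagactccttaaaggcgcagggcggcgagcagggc
The motif begins 104 bases before the start. GAANNTTC, which matches itself on the opposite strand, was in 6.69% of all windows. Counted by gene, it was in 810 of 12845 genes tested with a window (6.31%) and in 8 of the 22 list genes with a window (36.4%). Hspa1b was 62.5, 46.4 and 34.3 CPM at KO CT2 and 13.8, 113 and 26.0 at KO CT14, so the highest and the lowest KO library were both at CT14. Its difference was 0.10 ± 0.66, with 2.78 in WT, 3.25 in F and 2.59 in LKO. Hsph1, a co-chaperone of HSP70, was 76.0, 100.2 and 55.5 CPM at KO CT2 and 50.5, 125 and 53.2 at KO CT14 (-0.02), and it rose in WT (2.06), F (1.63) and LKO (1.73). Hspa8, the constitutive HSC70, had a KO difference of -0.29 and a rise of 1.81 in WT. In KO CT14 it was replicate 2 that was high for these chaperones, and replicate 1 the lowest. The difference of the time effect between KO and WT was called for 0 of the 28, with 13 at an unadjusted p under 0.05, all lower in KO (beside 3.77% of all genes), so a difference between the lines was not shown for any single chaperone.

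The 26 glucocorticoid-responsive genes had a KO median of 0.51 with 20 above 0, 0 called and 2 at an unadjusted p under 0.05 (beside 2.1% of all genes), against medians of 0.43 in WT, 0.37 in F and 0.30 in LKO. The KO median was 0.15 without replicate 3 at CT14, the library with high interferon genes, 0.29 without replicate 1 at CT14, 0.30 without replicate 1 at CT2, and 0.088 without replicate 1 at CT2 and replicate 3 at CT14 together. Fkbp5, a chaperone gene induced by the glucocorticoid receptor, was 22.9, 36.9 and 36.6 CPM at KO CT2 and 30.2, 34.6 and 68.4 at KO CT14, with replicate 3 alone above the CT2 range (0.47 ± 0.27). It rose by 2.95 in WT, 2.74 in F and 1.88 in LKO, each called, and the KO effect was below the WT effect by -2.49 (adjusted p = 0.00179). Tsc22d3 (GILZ), another direct target, was 103, 105 and 70.8 CPM at KO CT2 and 62.5, 69.4 and 133 at KO CT14 (-0.08), and it rose by 1.38 in WT and 1.22 in LKO. Both members had overlapping times in KO, while Pck1, which is also on this list, did not.

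Ribosome biogenesis genes are known to respond to feeding. Of 28 members, 27 had a negative KO value, the median was -0.17, and 0 had an unadjusted p under 0.05. Without replicate 1 at CT2 the KO median was -0.059 with 8 members above 0, and without replicate 2 at CT2 it was -0.29. The medians were 0.20 in WT, 0.46 in F and 0.56 in LKO, where 4 members were called higher (beside 0.444% of all genes). Nop2, an rRNA methyltransferase, had the smallest KO p of the list, with 32.7, 18.6 and 24.5 CPM at CT2 and 12.2, 18.0 and 19.1 at CT14, an overlap of 1 library (-0.62 ± 0.30). Polr1a, the large subunit of RNA polymerase I, was 24.2, 23.4 and 26.7 CPM at CT2 and 18.1, 23.3 and 22.9 at CT14 in KO, a difference of -0.21 ± 0.20 with no overlap by a narrow gap. It rose in F (0.96) and LKO (0.88). Members of a list that is expressed together share the libraries' deviations, so their signs are not independent.

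**Figure D4:**
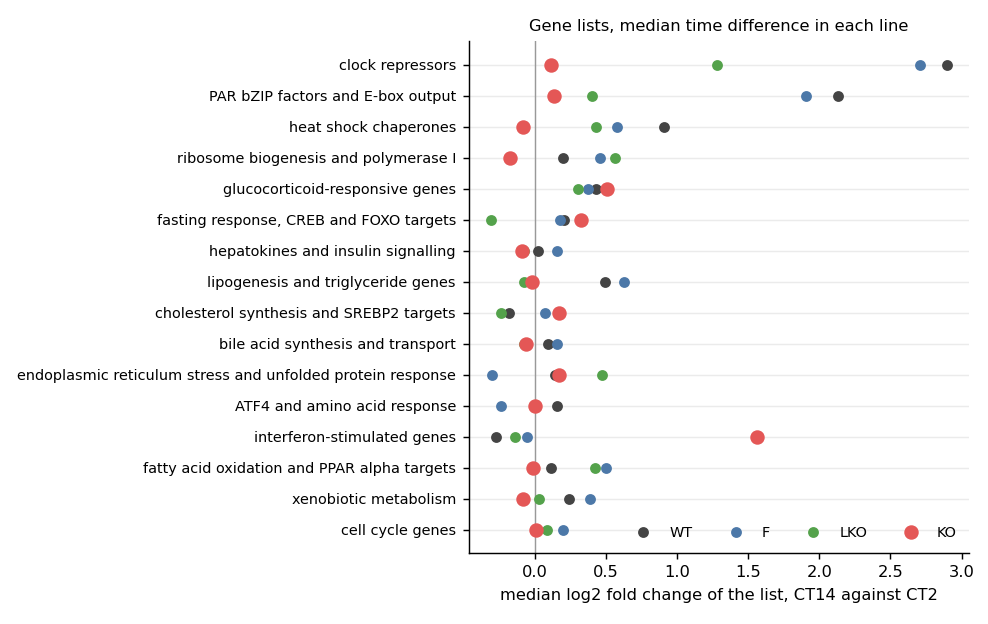
Median log2 fold change, CT14 against CT2 (horizontal axis), of 16 gene lists (rows) in WT, F, LKO and KO livers. KO medians lie between -0.17 (ribosome biogenesis) and 0.51 (glucocorticoid-responsive genes) except for interferon-stimulated genes at 1.56, which come from 1 library.

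The genes of smallest p in KO were named by rule although none was called. Besides Irs2, the highest-ranked gene with more RNA at CT14 was Akr1b1, aldose reductase of the polyol pathway, at 21.1, 31.0 and 14.6 CPM at CT2 and 44.7, 58.8 and 51.3 at CT14. Its times did not overlap (1.21 ± 0.27), and the values in WT (0.88) and F (0.81) had the same sign. Sall1, a zinc finger factor, was 12.4, 13.9 and 13.8 CPM at CT2 and 27.4, 23.4 and 24.8 at CT14, with tight replicates (0.92 ± 0.23). Cers6, a ceramide synthase, was 4.61, 7.35 and 8.99 CPM at CT2 and 13.8, 16.3 and 14.9 at CT14 (1.10 ± 0.28), and it rose in F (1.38, adjusted p = 0.00979). Hdc, which makes histamine, was 2.23, 1.43 and 1.90 CPM at CT2 and 5.59, 2.91 and 3.85 at CT14, and its KO effect was above the WT effect by 1.83 (adjusted p = 0.0258). Foxq1, a forkhead factor, was 7.64, 10.5 and 9.77 CPM at CT2 and 64.2, 14.3 and 18.8 at CT14, with replicate 1 far above the rest (1.80 ± 0.45). Gm7694 was 4.73, 4.46 and 5.66 CPM at CT2 and 15.04, 14.9 and 17.8 at CT14 (1.68 ± 0.40). Rpl21 was 2.33, 6.41 and 6.93 CPM at CT2 and 25.8, 21.3 and 19.1 at CT14, a value that is uncertain because the gene has many near-identical copies. Fryl had a difference of 0.78, and Trim34b, an interferon gene, was high in replicate 3 at CT14 alone.

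Among genes with less RNA at CT14, Bdh2, a short-chain dehydrogenase, was 16.04, 11.999 and 12.4 CPM at KO CT2 and 3.34, 6.60 and 6.84 at KO CT14. The times were well apart (-1.27 ± 0.28), and the KO effect was below the WT effect by -1.71 (adjusted p = 0.0407). Hsd3b3, a steroid dehydrogenase, was 229, 276 and 157 CPM at CT2 and 63.6, 69.5 and 133 at CT14 (-1.31 ± 0.35). The related Hsd3b5, a male-biased liver gene, was 386, 455 and 219 CPM at CT2 and 100.1, 143 and 284 at CT14 (-1.01 ± 0.44) with overlap, and reads shared between the Hsd3b copies make both uncertain. Nrep was 4.48, 4.61 and 6.56 CPM at CT2 and 1.63, 2.68 and 2.26 at CT14 (-1.25 ± 0.35), whereas WT rose from 9.46 ± 1.65 to 39.1 ± 3.95 CPM. Fdx1, the ferredoxin that feeds electrons to mitochondrial P450 enzymes, was 112, 94.5 and 98.5 CPM at CT2 and 77.7, 71.9 and 73.8 at CT14 (-0.45 ± 0.13), whereas it rose by 0.74 in WT. Both KO effects were below the WT effects, by -3.30 for Nrep (adjusted p = 0.00145) and -1.19 for Fdx1 (adjusted p = 0.00189). The LKO values, -0.04 for Nrep and -0.16 for Fdx1, were not called. Akap8l, a nuclear anchoring protein gene, was 15.2, 15.03 and 16.3 CPM at CT2 and 9.98, 10.6 and 10.6 at CT14 (-0.58 ± 0.18). The rule also named the pseudogene AC124513.1 and Fam171b, both high in only some KO CT2 libraries, and Rps27 (-0.97), Fam98a (-0.70) and Astn2 (-1.28), whose times overlapped. Fam171b was 6.45 to 16.3 CPM in WT libraries of both times.

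**Figure D5:**
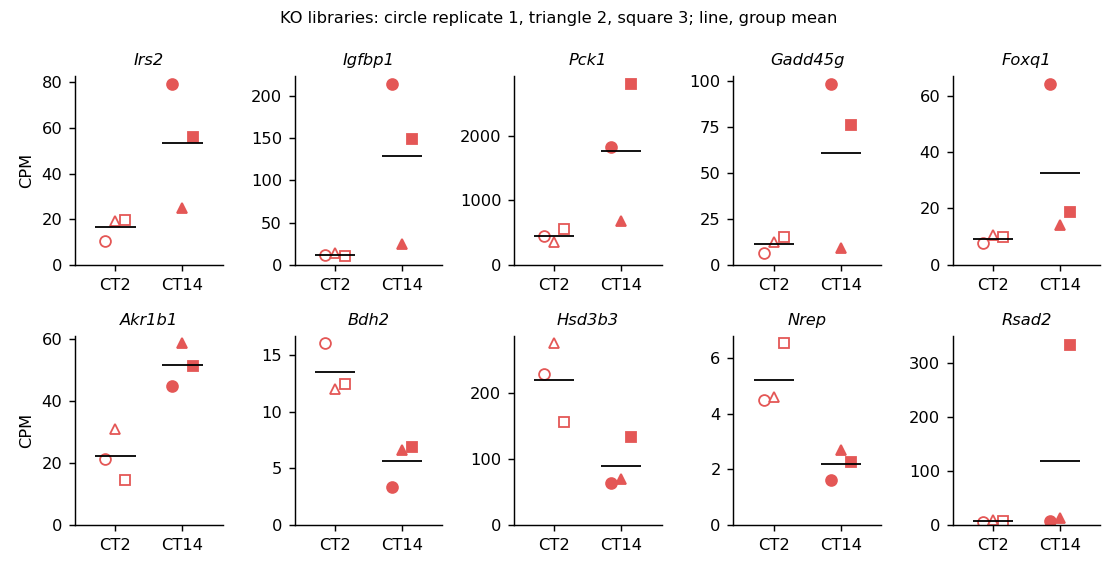
Level in CPM of 10 genes in each KO library, open points for CT2 and filled points for CT14, 3 libraries per time. Replicate 2 at CT14 is the low CT14 point for Irs2, Igfbp1, Pck1 and Gadd45g, and replicate 3 at CT14 stands alone for Rsad2.

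Some large KO values rested on 1 library. The 31 interferon-stimulated genes had a median of 1.56 and 17 members higher at an unadjusted p under 0.05 (beside 2.1% of all genes), yet the times did not separate for any of the 31. Rsad2, an antiviral enzyme, was 5.63, 9.30 and 7.24 CPM at CT2 and 7.85, 12.4 and 333 at CT14. Ifit1, an interferon-induced RNA binder, was 470.1 CPM in replicate 3 at CT14 and between 2.99 and 9.99 CPM in the other KO libraries. Without that replicate the list median was -0.48, with 0 members higher and 6 lower at an unadjusted p under 0.05. Myc was 50.3 CPM in replicate 1 at CT14 and 3.46 to 7.47 CPM in the other 5 libraries. Hamp2, a hepcidin gene, was 55.0 CPM in replicate 1 at CT2 and 2.09 to 10.4 CPM in the other 5. The part of the interferon, spermatid and Ddx3y differences between libraries in the other values was not tested.

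Acute phase genes, which encode plasma proteins of inflammation, were not called in KO. Of 29 members, 23 had a positive KO value, the median was 0.23, 3 had an unadjusted p under 0.05 (beside 2.1% of all genes), and the CT14 libraries were all above the CT2 libraries for 5 (beside 4.09%). The KO median was 0.054 without replicate 2 at CT2, 0.11 without replicate 1 at CT2, 0.13 without replicate 3 at CT14 and 0.54 without replicate 3 at CT2. The medians in the other lines were -0.59 in WT, -0.21 in F and -0.33 in LKO. Saa3, an acute phase apolipoprotein, was 7.20, 5.71 and 7.89 CPM at KO CT2 and 22.8, 12.3 and 12.2 at KO CT14 (1.18 ± 0.42). Of the 37 xenobiotic genes, 1 was higher (beside 2.1% of all genes) and 3 were lower (beside 1.57%) at an unadjusted p under 0.05. Cyp3a13 was 98.3, 67.4 and 119 CPM at CT2 and 174, 179 and 174 at CT14 (0.89 ± 0.25). Cyp1a2, the caffeine-metabolizing enzyme, was 665, 736 and 417 CPM at CT2 and 416, 360 and 277 at CT14 (-0.79 ± 0.29). Neither overlapped and neither was called. Kupffer cell and macrophage markers summed to 710 to 1056 CPM at CT2 and 634 to 742 at CT14 in KO, erythroid markers to 579 to 1877 and 1136 to 1416, and lymphocyte markers to 19.7 to 35.4 and 21.4 to 23.8. Their part in the acute phase values was not tested.

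Whether the KO time effect differed from that of WT was tested directly, in one model, as the difference of both differences. It was called for 164 of 20514 genes (0.799%), 103 with a higher (0.502%) and 61 with a lower value in KO (0.297%). Of the 164, 155 were called between times in WT and 126 had a KO difference under 0.5 in size, so most of these calls joined a time difference in WT with a small value in KO. In 28 of the 164 the KO difference itself had an unadjusted p under 0.05 (beside 3.67% of all genes). The same KO and WT libraries enter the difference that chose the 164, so these counts describe the calls and are not a separate test. Among genes outside the clock lists, the largest higher values were for Dhrs9 (6.89), Gm11454 (5.44), 3930402G23Rik (4.84), Nckap5 (4.798) and Loxl4 (4.74). Loxl4, a lysyl oxidase, was 44.1, 51.1 and 38.7 CPM at KO CT2 and 60.2, 86.7 and 86.0 at KO CT14, where WT fell from 9.70 ± 9.70 to 0.629 ± 0.111 CPM. The KO times did not overlap, and every KO library was above both WT means. The LKO value of Loxl4 was 0.12, not called. The largest lower values, after Thrsp, were for Gm45819 (-4.92), Cyp2a5 (-4.13), Lpin1 (-4.00) and Hcn3 (-3.88), with Cyp2a5 uncertain because of a near-identical neighbour. The difference was called for 50 of the 273 genes higher in F, all with a lower time effect in KO than in WT. Among the 272 genes lower in F it was called for 62, all with a higher time effect in KO. These directions follow largely from the WT effect, which mostly shared the F sign, and are not a separate test. E-boxes were in 15 of the 126 called genes with a promoter window (11.9%) and in 1172 of 12845 genes tested (9.12%).

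Against LKO, where chiefly hepatocytes lack BMAL1, the difference of the time effect was called for 7 genes (0.0341%). KO and LKO belong to different lines with their own controls, WT and F. Line and kind of knockout therefore cannot be told apart in this difference. Irs2 (3.23), Gm7694 (3.35), Chac1 (3.84), Gas7 (2.61), Sgms2 (1.77) and Mafk (1.55) were higher in KO (0.0292%), and Usp2 (-2.75) was lower (0.00487%). Chac1, which degrades glutathione, was 1.45, 1.32 and 2.88 CPM at KO CT2 and 4.33, 1.58 and 5.32 at KO CT14, and it fell in LKO from 4.06 to 0.563 CPM. Sgms2, a sphingomyelin synthase, was 17.7, 25.6 and 21.95 CPM at KO CT2 and 42.1, 23.7 and 40.8 at KO CT14, and fell in LKO from 36.1 to 17.2 CPM. In both, replicate 2 at CT14 was the library within the CT2 range. Mafk, a small MAF factor, was 11.1, 12.7 and 14.05 CPM at KO CT2 and 21.7, 13.3 and 26.2 at KO CT14, and fell by 0.86 in LKO. Each of the 7 lost its call under some of the alternatives tried. The count was 35 without KO replicate 2 at CT14 and 0 without KO replicate 1 or 3 at CT2 or without any LKO library other than replicate 3 at CT2.

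The authors' own comparison of these 6 libraries made more calls. In the authors' deposited table, 32 genes had an adjusted p under 0.05, 23 higher and 9 lower at CT14, of 14774 with an adjusted p (0.217%). All 32 had the same direction in the edgeR fit, and the KO times did not overlap for 30 (beside 7.63% of all genes). The same 6 libraries chose these 32, so both counts describe the calls and are not a separate test. The DESeq2 fit made here, on all 24 libraries, shared 7 of its 37 calls with the 32. The authors' deposited table gave log2 fold changes of 1.70 for Irs2 (adjusted p = 0.00415), 3.44 for Igfbp1, 1.96 for Pck1 and 0.91 for Sall1. It gave -1.28 for Bdh2, -1.33 for Hsd3b3, -1.26 for Nrep and -1.34 for Ces2c, a carboxylesterase. It also held both Cyp26 genes, whose enzymes clear retinoic acid. Cyp26a1 was 10.7, 8.90 and 19.8 CPM at CT2 and 36.9, 30.0 and 76.4 at CT14 here, and Cyp26b1 was 3.22, 9.57 and 2.10 CPM at CT2 and 31.9, 39.1 and 22.8 at CT14. Both were without overlap, with 1.85 and 2.64 in the authors' deposited table. Mup7, a major urinary protein gene, was 390, 292 and 756 CPM at CT2 and 1613, 1688 and 2784 at CT14, which is uncertain since the Mup genes are near copies of each other.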

How the data were processed

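Polyadenylated liver RNA had been sequenced with a stranded kit in 24 libraries, 3 for each of 8 groups, grouped by their labels. The authors deposited estimated counts per gene, not normalized, and the same genes in TPM. The authors' deposited table for KO CT14 against KO CT2 gives their log2 fold changes and their p-values, raw and adjusted. Per the submitters' processing notes, the tools were HISAT2 2.2.1, StringTie 1.3.1 and fastp 0.23.2, and the build was GRCm39. Neither the strandedness of counting nor the annotation release is given in the sources used here, so overlapping and near-identical genes are uncertain. The counts were whole numbers in which multiples of 4 outnumbered their neighbours 1.45 to 1.65 times, so counting precision is overstated for weakly expressed genes.

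Counts were analysed with edgeR 4.0.16 in R 4.3.3. Of 56941 genes, 33118 had a count, and filterByExpr (8 groups, at least 10 counts and 15 in total) kept 20514, of which 642 had no symbol. One quasi-likelihood model with TMM scaling, robust estimation and 8 group means was fitted to all 24 libraries, and contrasts were tested with the F-test and Benjamini-Hochberg adjustment over all genes tested, with calls at an adjusted p under 0.05. Every p-value given for a gene is from this model unless another tool or test is named. Levels are CPM, with TMM factors. Alternatives were DESeq2 1.42.0, limma-trend (limma 3.58.1) on log2(TPM + 1) and log2(TPM + 0.1), other scaling and filters, counts divided by 4, fewer libraries and a replicate block.

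The comparison and the gene lists were chosen with earlier results of these data known. Genes are named by rule: up to 10 genes of smallest p in each direction of the KO time comparison, with a symbol and at least 1 CPM over the KO libraries, every clock list member (1 is not reported here), the member of smallest p in each other list, and, for the difference from WT or LKO, the 5 largest called differences in each direction. Further genes were named for their place in a list or in the authors' table after their values were seen. Reference annotation on GRCm38 served for names only. Promoter windows came from RefSeq (GRCm38.p6) by symbol, and 12845 of the tested genes with a symbol matched. A replicate-number block was not used in the fit reported.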

Additional observations from a re-analysis of the deposited data

Results flagged for a closer look

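The time effect differed between KO and WT livers for 164 genes and between KO and LKO livers for 7 genes, each by the edgeR test of the difference itself. Groups of 3 libraries were too small for a test of single outlying samples. KO minus WT, on the log2 scale, was 2.39 for Bmal1, 7.44 for Npas2, -4.01 for Per2, -4.65 for Per3, -1.02 for Cry2, -8.61 for Ciart and -1.95 for Nr1d2. It was -6.12 for Dbp, -3.11 for Tef, -5.51 for Usp2, -2.84 for Wee1 and -2.61 for Coq10b, a mitochondrial ubiquinone gene. Bmal1 and Npas2 are the 2 clock list members called with a higher value in KO, and both fell at CT14 in WT.

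Among genes of smallest p in KO, the difference from WT was 2.85 for Irs2, 1.83 for Hdc, 3.24 for Rpl21, 2.80 for Foxq1, -1.71 for Bdh2, -3.30 for Nrep and -1.19 for Fdx1. Among list members it was -2.49 for Fkbp5, -1.83 for St3gal5, -1.43 for Foxo3 and -2.01 for Gys2. Among the remaining genes it was 6.89 for Dhrs9, 5.44 for Gm11454, 4.84 for 3930402G23Rik, 4.798 for Nckap5 and 4.74 for Loxl4, and -5.15 for Thrsp, -4.92 for Gm45819, -4.13 for Cyp2a5, -4.00 for Lpin1 and -3.88 for Hcn3. KO minus LKO was 3.23 for Irs2, 3.35 for Gm7694, 1.55 for Mafk, 1.77 for Sgms2, 2.61 for Gas7, 3.84 for Chac1 and -2.75 for Usp2.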

How the results depend on the processing

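The KO time comparison had 0 calls with edgeR under RLE scaling, no filter, the stricter filter, counts divided by 4, the 6 KO libraries alone, the replicate block and limma-trend on log2(TPM + 0.1). It had 37 with DESeq2, 1 with limma-trend on log2(TPM + 1), and 4 without the 2 KO libraries with more spermatid transcripts than the other KO libraries. Without single KO libraries it ran from 0 to 8, with 8 without replicate 3 at CT2, 2 without replicate 2 at CT2 and 1 without replicate 1 at CT14. With replicate 1 at CT2 and replicate 3 at CT14 both left out, an alternative chosen after seeing the data, the count was 2 for KO time, 99 for the difference from WT and 2 for the difference from LKO.

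The other counts moved as follows. With DESeq2 they were 949 in WT, 1172 in F, 662 in LKO, 388 for KO against WT and 212 for KO against LKO. With the replicate block they were 307, 265, 21, 83 and 0, and the KO numbers share no deviations (r = 0.017, 0.006 and -0.017 for the same number), so they share only a number. No filter gave 87 in LKO. Without the 2 KO libraries with more spermatid transcripts the counts were 85 against WT and 3 against LKO. For KO against LKO, the stricter filter gave 12, counts divided by 4 gave 11, limma-trend 3 on log2(TPM + 1) and 0 on log2(TPM + 0.1), and the 12 libraries alone 1. Without single libraries WT ran from 273 to 420, F from 246 to 593, LKO from 10 to 59, KO against WT from 103 to 161 and KO against LKO from 0 to 35. The lowest WT count and the lowest count of KO against WT were both without WT replicate 2 at CT14. The KO medians of genes selected in F, an outcome added after seeing the data, ran from -0.025 to 0.071 (without KO replicate 2 at CT2) for genes higher in F and from 0.012 to 0.084 (without F replicate 3 at CT14) for genes lower in F. Without replicate 3 of F at both times, chosen after seeing the data, F had 208 calls and the second median was 0.094. Myc reversed, to -0.063 from 1.93, without the 2 KO libraries with more spermatid transcripts. The cause of these shifts was not tested.

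Of 759 alternative values for 33 named genes in the difference from WT, 637 kept their call and 122 lost it, and 18 genes never lost it. For the 7 genes of the difference from LKO, 50 of 161 kept it. Counts at multiples of 4 limit genes near 1 CPM or below.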
